A study of Homo sapiens with 8 samples.

Results

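The 8 genes described here, CD44, MMP14, PROM1, ALCAM, CD24, ALDH1A1, ALDH1A3 and BMI1, are surface, protease, enzyme and chromatin markers used to recognize colorectal cancer stem cells. They were chosen by symbol, and each symbol has 1 row in each of 2 tables of read counts, 1 of 42125 genes and 1 of 23393 genes. Levels were measured by mRNA-seq in 8 libraries of HCT116, an established human colorectal cancer line, in 4 groups of 2 replicates. By the labels, all of these cells stably carried a Tet-On shRNA against SAE2, which is another name of UBA2, the catalytic subunit of the enzyme that activates SUMO. The first experiment compared cells 48 hrs after a control siRNA with cells 48 hrs after an siRNA against TFAP2C, which encodes a transcription factor of the AP-2 family and gives the group TFAP2C KD. The second compared cells kept for 5 days with DMSO and without doxycycline (no Dox) with cells given doxycycline at 1 μg/mL over the same 5 days, labelled UBA2 KD. The siRNA cells thus carry the uninduced shRNA as well, and the labels do not say whether the line is 1 clone or whether replicates came from separate cultures. The p-values therefore measure the spread between these samples, which may be technical.

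Cancer stem cells are the fraction of tumor cells able to seed and renew a tumor, and no single gene defines them. CD44 binds hyaluronan in the matrix around the cell, PROM1 encodes CD133 of membrane protrusions, ALCAM encodes the adhesion protein CD166, and CD24 is a small, heavily glycosylated protein held to the membrane by a lipid anchor. MMP14 is a membrane-bound matrix metalloproteinase that cuts collagen and activates pro-MMP2. ALDH1A1 and ALDH1A3 oxidize retinaldehyde to retinoic acid and can contribute to the aldehyde dehydrogenase activity by which stem-like cells are sorted, and BMI1 is a subunit of Polycomb repressive complex 1, which silences genes that stop cell division. SUMO is a small protein joined to many transcription factors, AP-2 proteins among them.

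Because 1 experiment lowers an AP-2 factor, the stretches upstream of the markers were searched for the letters of the AP-2 core, GCCNNNGGC, and of its form with a wider gap, GCCNNNNGGC. Each reads the same on both strands. Of 35116 promoters in RefSeq on GRCh38.p14, 19.8% held the former within 250 bases upstream of the start, 18.6% the latter, and 32.3% either. At the first start that RefSeq lists, 5 of the 8 markers held a match, and it is printed in capitals within its neighbouring bases, 5′ to 3′ on the strand of the gene. The windows lie at chr15:100879626-100879674 (plus strand) for ALDH1A3, chr6:106975634-106975682 (minus strand) for CD24, chr10:22320950-22320998 (plus strand) for BMI1, chr3:105366751-105366800 (plus strand) for ALCAM and chr4:16084082-16084131 (minus strand) for PROM1.
ALDH1A3: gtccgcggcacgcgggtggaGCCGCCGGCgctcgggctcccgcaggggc
CD24: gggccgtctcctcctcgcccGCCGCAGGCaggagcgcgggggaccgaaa
BMI1: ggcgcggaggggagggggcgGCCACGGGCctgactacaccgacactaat
ALCAM: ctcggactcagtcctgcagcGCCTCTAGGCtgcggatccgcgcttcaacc
PROM1: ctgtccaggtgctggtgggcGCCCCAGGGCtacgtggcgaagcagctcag
The match ends 177 bases before the start in ALDH1A3, 27 in CD24, 121 in BMI1, 129 in ALCAM and 79 in PROM1. CD44, MMP14 and ALDH1A1 held neither form in the window. PROM1, CD24 and BMI1 have more than 1 start, and the shares above count every start listed, so they are not shares per gene. At the first starts, G and C made up 58.8% to 82.4% of the windows with a match and 38.4% to 62.4% of those without. Whether the markers hold more matches than other windows of such content was not tested. These are matches of letters and not measured binding sites.

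Total counts lay between 20785035 and 24465109 in the TFAP2C experiment and between 18213739 and 20607813 in the UBA2 experiment. TFAP2C itself had 18.9 and 20.5 counts per 1000000 of the scaled library size (CPM) with control siRNA and 3.46 and 4.30 CPM in TFAP2C KD, or -2.34 ± 0.13 on the log2 scale (fold changes are given with their standard errors; adjusted p = 7.67e-06 by the quasi-likelihood test of edgeR). UBA2 mRNA did not separate the groups of its own experiment, at 162 and 146 CPM without Dox and 147 and 153 CPM with Dox (log2 fold change -0.04, 95% confidence interval -0.15 to 0.08, adjusted p = 0.766). The second group is therefore called "labelled UBA2 KD" throughout, and its directions are those of libraries with Dox against libraries without it. No group had Dox without this shRNA, so an effect of Dox alone cannot be told apart from one of the shRNA. All 7 epithelial markers had counts in every library. Among the markers of other cell types, DCN, of fibroblasts, was at 0 counts in all libraries, but COL1A1, a collagen gene, had 269 to 1157 counts. The 11 markers of other cell types summed to 46.8 to 51.9 CPM in the TFAP2C experiment and 21.3 to 28.9 CPM in the UBA2 experiment, most of it COL1A1, without which 3.63 to 7.36 CPM remained. Of these markers CD68 had 94 to 107 counts in the UBA2 experiment and 12 to 17 counts in the TFAP2C experiment. The 2 TFAP2C KD libraries differed from each other more than those of any other group, with a chi-square per degree of freedom of 8.38 against 2.47 to 2.68.

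In both experiments CD44 and ALDH1A3 were by far the most abundant of the markers per length of transcript, and ALDH1A1 was barely detected. With control siRNA the order in RPKM, which is CPM per kilobase of transcript, was ALDH1A3 with 140 ± 4.23 (SD, n = 2), CD44 with 96.9 ± 0.087, ALCAM with 20.8 ± 0.38, MMP14 with 9.40 ± 0.17, PROM1 with 5.98 ± 0.026, BMI1 with 5.76 ± 0.29 and CD24 with 2.58 ± 0.081. Of these neighbours, PROM1 (lowest library 5.96) and BMI1 (highest library 5.97) overlapped and the others did not. Without Dox the order was CD44 with 137 ± 1.73 RPKM, ALDH1A3 with 88.4 ± 10.5, ALCAM with 25.3 ± 1.21, PROM1 with 9.30 ± 0.22, MMP14 with 3.53 ± 0.39, CD24 with 3.24 ± 0.11 and BMI1 with 0.519 ± 0.061. Here MMP14 (3.26 to 3.80) and CD24 (3.16 to 3.32) were the neighbours that overlapped. The tables use different gene models, so the ALDH1A3 transcript counts as 5.32 kb in one and 3.48 kb in the other, and levels in the tables cannot be told apart from these differences and from those of culture. In bulk mRNA, fewer cells with a marker and less mRNA of it per cell cannot be told apart either.

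**Figure D1:**
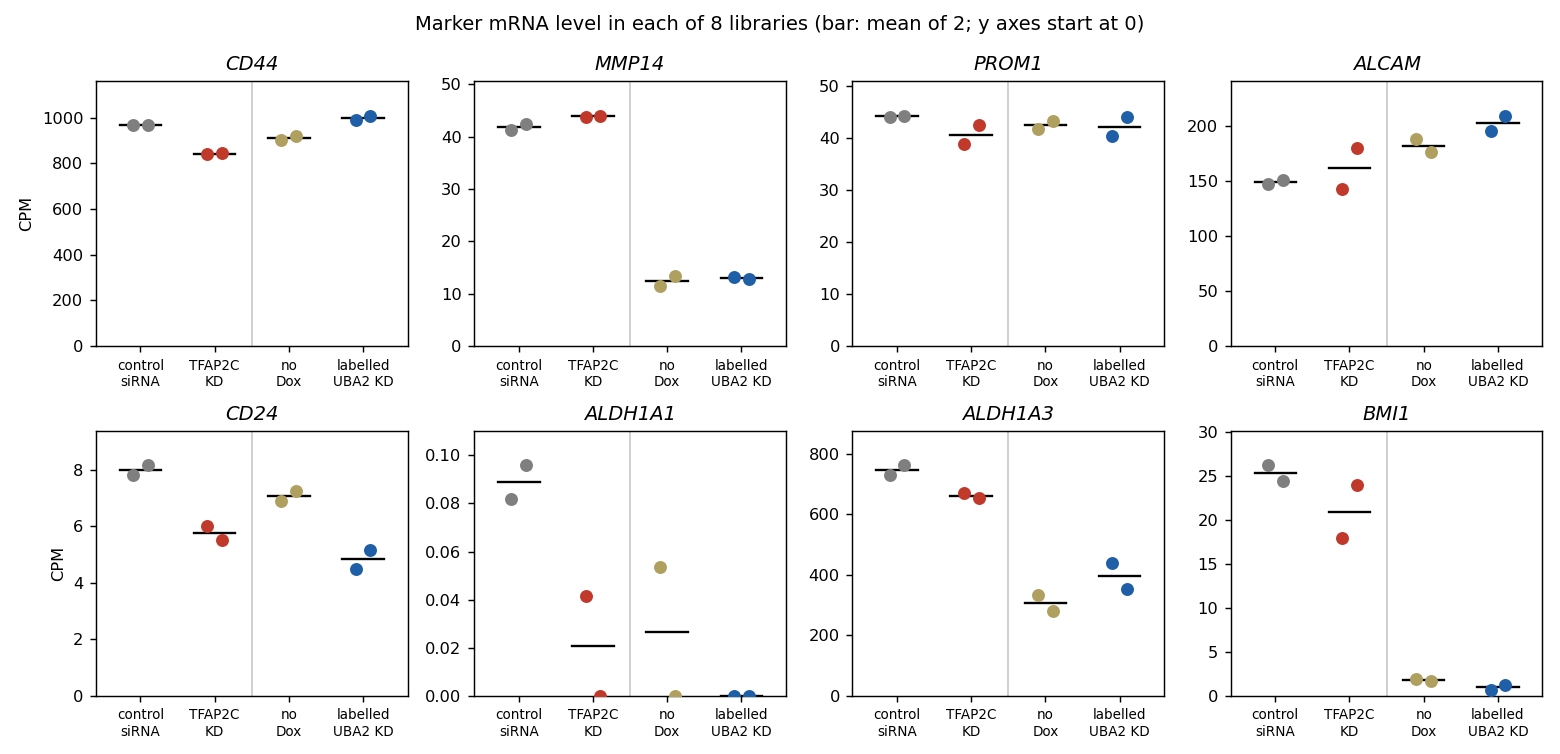
Level of each marker in CPM (y axes, each starting at 0) in the 8 libraries. Points are libraries, bars are means of 2, and a grey line parts the experiments, whose tables were counted on different gene models. CD44 libraries lie between 839 and 1009 CPM, and ALDH1A1 has at most 2 counts in any library.

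ALDH1A1 (GRCh38 chr9:72900671-73080442) had 2 and 2 counts with control siRNA and 1 and 0 counts in TFAP2C KD. In the UBA2 experiment it had 1 and 0 counts without Dox and 0 and 0 counts with Dox. At these depths a count of 0 allows up to 3 counts, or 0.123 to 0.167 CPM. The counts of ALDH1A1 lay under this limit in all 8 libraries, though the limit applies to a count of 0 and not to 1 or 2. ALDH1A1 did not pass the filter on low counts, so no difference could be tested. The limit covers counting error only. ALDH1A3, the enzyme of the same reaction, had from 5877 to 17796 counts in a library.

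In TFAP2C KD the levels of CD44, ALDH1A3, CD24, BMI1 and PROM1 lay under those of control siRNA in both libraries, with CD24 at -27.7% and CD44 at -12.8%, but 0 of the 7 markers that passed the filter on low counts had an adjusted p under 0.05. Of all 14991 genes tested, 0.740% had one (111 genes). At an unadjusted p under 0.05 stood 4 of the 7 markers, CD44, CD24, ALDH1A3 and BMI1, against 12.6% of all genes, and the DESeq2 Wald test also called 0 markers. The median log2 fold change of the 7 was -0.17, and that of all genes was -0.0038. For 6 of the 7, both TFAP2C KD libraries lay beyond both controls, as they did for 44.7% of all genes tested.

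CD44 (GRCh38 chr11:35138870-35232402) had 968 and 966 CPM with control siRNA and 839 and 847 CPM in TFAP2C KD. The groups did not overlap, and replicates differed far less than groups. Its log2 fold change was -0.20 ± 0.065 (95% confidence interval -0.34 to -0.055, adjusted p = 0.234). ALCAM (GRCh38 chr3:105366909-105576900), the adhesion marker, had 147 and 151 CPM with control siRNA and 143 and 180 CPM in TFAP2C KD. Its TFAP2C KD libraries lay on both sides of the controls, and the log2 fold change was 0.12 ± 0.094 (adjusted p = 0.647).

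PROM1 (GRCh38 chr4:15963076-16084378) had 44.1 and 44.4 CPM with control siRNA and 38.8 and 42.6 CPM in TFAP2C KD, with a log2 fold change of -0.12 ± 0.083 (adjusted p = 0.579). CD24 (GRCh38 chr6:106969831-106975627) had 7.80 and 8.15 CPM with control siRNA and 6.0 and 5.50 CPM in TFAP2C KD, counts of 123 to 190. Both lay lower in TFAP2C KD without overlap, and for CD24 the log2 fold change was -0.47 ± 0.13 (95% confidence interval -0.75 to -0.19, adjusted p = 0.161), the largest in size among the markers here. MMP14 (GRCh38 chr14:22836560-22849027), the collagenase, had 41.3 and 42.3 CPM with control siRNA and 43.7 and 44.0 CPM in TFAP2C KD. Its interval, -0.10 to 0.24 on the log2 scale, held changes in both directions (log2 fold change 0.07, adjusted p = 0.753).

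ALDH1A3 (GRCh38 chr15:100877714-100916626) had 730 and 762 CPM with control siRNA and 671 and 653 CPM in TFAP2C KD. These groups did not overlap either, at a log2 fold change of -0.17 ± 0.066 (95% confidence interval -0.32 to -0.028, adjusted p = 0.308). BMI1 (GRCh38 chr10:22321099-22331484) had 26.2 and 24.4 CPM with control siRNA and 17.9 and 23.9 CPM in TFAP2C KD. The second TFAP2C KD library lay next to the controls, and the log2 fold change was -0.28 ± 0.12 (adjusted p = 0.384). Without TFAP2C KD replicate 2, BMI1, CD24 and CD44 were called (log2 fold changes -0.50, -0.40 and -0.20, adjusted p = 2.74e-05, 0.0422 and 0.0138), and without TFAP2C KD replicate 1, ALCAM and CD24 were (0.27 and -0.53, adjusted p = 0.00282 and 0.0271). A single library is then assumed to vary like the control group.

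In the libraries labelled UBA2 KD, 3 of the 7 tested markers were called. ALDH1A3 rose by 28.7%, CD44 rose by 9.44%, and CD24 fell, to a level 0.683 times that without Dox. Of 13381 genes tested, 9.98% were called, 5.52% as higher and 4.47% as lower, so that 2 markers stand against the former share and 1 against the latter. With scaling by library size only, 588 genes were higher and 805 lower, in place of 738 and 598. An unadjusted p under 0.05 was reached by 5 of the 7 and by 22.7% of all genes. The median log2 fold change of the 7 was 0.06 (all genes -0.00042), and 5 of the 7 did not overlap between groups, beside 51.3% of all genes.

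ALDH1A3 (hg19 chr15:101420009-101456830) had 334 and 282 CPM without Dox and 439 and 352 CPM in labelled UBA2 KD. The lowest library with Dox lay above the highest without it, but replicates of a group differed by more than those of CD44. The log2 fold change was 0.36 ± 0.068 (95% confidence interval 0.23 to 0.50, adjusted p = 0.000288). CD44 (hg19 chr11:35160417-35253949) had 904 and 921 CPM without Dox and 988 and 1009 CPM in labelled UBA2 KD. Its change was small beside its level, and the groups were clearly apart, with a log2 fold change of 0.13 ± 0.040 (95% confidence interval 0.048 to 0.21, adjusted p = 0.0338).

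CD24 had 6.89 and 7.24 CPM without Dox and 4.50 and 5.16 CPM in labelled UBA2 KD, from counts of 129 and 151 against 81 and 96. All libraries with Dox lay lower, at a log2 fold change of -0.55 ± 0.15 (95% confidence interval -0.86 to -0.24, adjusted p = 0.0155). This table places CD24 on chromosome Y (hg19 chrY:21152526-21154705), whereas the other places it on chromosome 6, and since near-identical copies can share or lose reads, its level is uncertain.

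ALDH1A3 was called without each of the 4 libraries in turn, at log2 fold changes from 0.20 without labelled UBA2 KD replicate 1 to 0.52 without labelled UBA2 KD replicate 2. CD24 lost its call without no Dox replicate 2 (adjusted p = 0.0809) and without labelled UBA2 KD replicate 1 (adjusted p = 0.145). CD44 lost it without no Dox replicate 1 (adjusted p = 0.183), no Dox replicate 2 (0.0845) and labelled UBA2 KD replicate 2 (0.103), and with scaling by library size only (0.0935). The DESeq2 Wald test gave adjusted p = 0.0521 for CD44, 0.216 for CD24 and 0.396 for ALDH1A3, at nearly the same fold changes. It called 0 markers and gave no adjusted p for BMI1. Over the 12 alternatives to the main test, CD44 lost its call in 6, CD24 in 3 and ALDH1A3 in 1.

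ALCAM (hg19 chr3:105085557-105295757) had 188 and 176 CPM without Dox and 195 and 209 CPM in labelled UBA2 KD, higher in both libraries, with a log2 fold change of 0.15 ± 0.053 (adjusted p = 0.0673). BMI1 (hg19 chr10:22610139-22620414) had 36 and 34 counts without Dox and 12 and 23 counts in labelled UBA2 KD, or 1.92 and 1.63 CPM against 0.666 and 1.24 CPM. Neither overlapped between groups, and neither passed the test; for BMI1 the log2 fold change was -0.88 ± 0.31 (95% confidence interval -1.53 to -0.24, adjusted p = 0.0717). Without a filter on low counts both passed it, with adjusted p = 0.0445 for ALCAM and 0.0434 for BMI1. ALCAM also passed it without no Dox replicate 1 (0.0490) or labelled UBA2 KD replicate 1 (0.0157), and BMI1 without labelled UBA2 KD replicate 2 (0.0244).

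The BMI1 row is uncertain in this table. It ends at base 22620414, as does that of COMMD3-BMI1, a read-through transcript that had 0 counts in every library of both tables, and in the table of TFAP2C KD BMI1 runs 1942 bases past the end of COMMD3-BMI1. With counts of 12 to 36 here and 429 to 638 there, reads in the shared bases may not have been counted, which was not tested. MMP14 (hg19 chr14:23305793-23316803) had 11.5 and 13.4 CPM without Dox and 13.2 and 12.9 CPM in labelled UBA2 KD. PROM1 (hg19 chr4:15969849-16085623) had 41.8 and 43.2 CPM without Dox and 40.4 and 44.0 CPM in labelled UBA2 KD. Both overlapped between groups, with 95% confidence intervals of -0.17 to 0.29 for MMP14 and -0.16 to 0.14 for PROM1 on the log2 scale (adjusted p = 0.805 and 0.947).

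**Figure D2:**
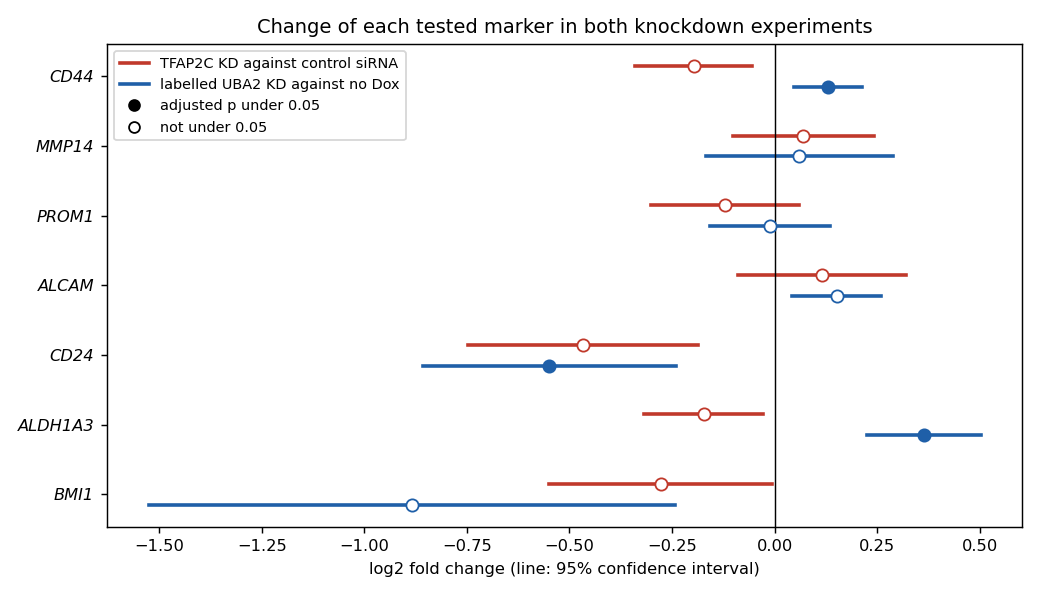
Log2 fold change of the 7 tested markers (x axis) in TFAP2C KD (red) and in labelled UBA2 KD (blue), each against its own control, with 95% confidence intervals as lines and filled points where the adjusted p is under 0.05. The 3 filled points are ALDH1A3, CD44 and CD24 in labelled UBA2 KD, and CD44 and ALDH1A3 lie on opposite sides of 0 in the 2 experiments.

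**Figure D3:**
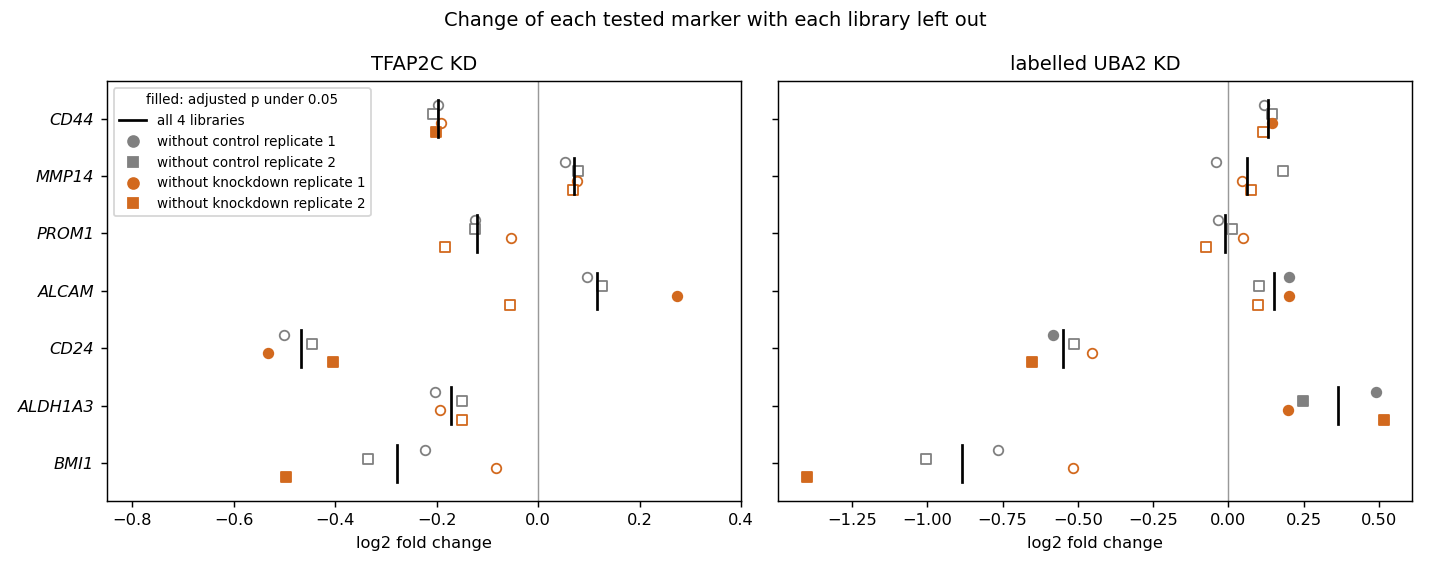
Log2 fold change of the 7 tested markers (x axis) with all 4 libraries of an experiment (black bar) and with each library left out (points, filled where the adjusted p is under 0.05), for TFAP2C KD on the left and labelled UBA2 KD on the right, on x axes of different span. BMI1 in TFAP2C KD runs from -0.50 to -0.08, whereas CD44 runs from -0.21 to -0.19.

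Whether a marker's change differed between the experiments was tested over the symbols that both tables list. The changes of CD44 and ALDH1A3 differed and those of the other 5 did not pass, where 2.37% of 13179 genes tested did. For CD44 the log2 fold change in TFAP2C KD was lower than in labelled UBA2 KD by -0.34 ± 0.068 (95% confidence interval -0.49 to -0.20, adjusted p = 0.0129). For ALDH1A3 the difference was -0.55 ± 0.13 (95% confidence interval -0.82 to -0.28, adjusted p = 0.0319). CD24 lay under its controls in both experiments, but its fall was called only in labelled UBA2 KD. The difference of its changes was 0.07 (95% confidence interval -0.32 to 0.46, adjusted p = 0.922). The tables place CD24 on different chromosomes, so its changes may not be measured on the same reads. For MMP14 the interval ran from -0.27 to 0.26, for PROM1 from -0.35 to 0.11, for ALCAM from -0.31 to 0.22 and for BMI1 from -0.23 to 1.42. The call of CD44 was lost without any 1 of the 6 libraries other than those of TFAP2C KD (adjusted p = 0.0681 to 0.113), and that of ALDH1A3 without control siRNA replicate 1 (0.0938) or 2 (0.158), no Dox replicate 2 (0.201) or labelled UBA2 KD replicate 1 (0.219) and in the DESeq2 Wald test (0.157). The experiments also differ in the agent and in time, so a difference between them cannot be told apart from these.

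Around the markers, 8 lists of 141 genes were examined: other colon stem cell markers, other aldehyde dehydrogenases, the retinoic acid pathway, ligands and partners of CD44, the family and partners of MMP14, relatives of PROM1, ALCAM and CD24, Polycomb repressive complex 1, and colon differentiation. In TFAP2C KD 3 of the 97 tested genes rose and 0 fell, beside 0.740% called of all genes, and the medians of the lists ran from -0.11 to 0.09. Among these were HAS3, which makes hyaluronan, the ligand of CD44 (log2 fold change 0.50, adjusted p = 0.00855) and DCLK1, a kinase used as a marker of tuft cells (0.58, adjusted p = 0.0249). Both lost the call without control siRNA replicate 1 (adjusted p = 0.157 and 0.244). In labelled UBA2 KD 15 of the 96 tested genes rose and 6 fell, beside 5.52% and 4.47% of all genes, and the medians ran from -0.15 to 0.11. Of the 18 genes of these lists and of the epithelial markers that are given with values for labelled UBA2 KD, 11 were called without each library in turn, and BSG, CBX8, DPP4, EZR, MCAM, RARA and RDH11 were not.

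Among the 11 other colon stem cell markers tested in labelled UBA2 KD, EPCAM, ITGA6, ITGB1 and SOX9 rose and DPP4 fell (log2 fold change -0.64, adjusted p = 0.0417), with a median log2 fold change of 0.09. ITGA6, an integrin chain that binds laminin, went from 297 ± 22.0 to 397 ± 0.35 CPM (SD, n = 2, log2 fold change 0.42, adjusted p = 1.23e-07), and its partner ITGB1 from 397 ± 37.5 to 507 ± 6.93 CPM (0.35, adjusted p = 4.14e-06). BSG, an inducer of matrix metalloproteinases, rose by 0.17 (adjusted p = 0.00910). It was 1 of 2 genes that rose among the 13 tested of the MMP14 list, whose median was 0.09, and in TFAP2C KD 0 of 13 were called.

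For CD44, 3 of 15 tested ligands and partners rose and 1 fell in labelled UBA2 KD, at a median of -0.06. HAS3 rose by 0.33 (adjusted p = 0.000243) and EZR, ezrin, which ties CD44 to actin, by 0.17 (adjusted p = 0.00313). MSN, moesin, rose as well. CEMIP, which takes part in breaking down hyaluronan, fell by 0.60 on the log2 scale (adjusted p = 0.000513). In TFAP2C KD, EZR stood at 0.17 and CEMIP at -0.66 without a call (adjusted p = 0.379 and 0.147). Of the 16 genes of this list tested for a difference between the experiments, 0 passed. MCAM was the 1 call among 4 tested relatives of PROM1, ALCAM and CD24, at -0.24 (adjusted p = 0.0403), and it was lost without any 1 of the 4 libraries.

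In the retinoic acid pathway, in which ALDH1A3 acts, 2 of 14 tested genes rose and 2 fell in labelled UBA2 KD, at a median of 0.11. CRABP2, which carries retinoic acid to its receptor in the nucleus, fell from 117 ± 2.23 to 71.9 ± 1.47 CPM (log2 fold change -0.70, adjusted p = 8.74e-11), and RDH11, a retinal reductase, fell by 0.27 (adjusted p = 0.00161). RARA, a retinoic acid receptor, rose by 0.25 (adjusted p = 0.0283). Of 13 other aldehyde dehydrogenases tested, ALDH2, the mitochondrial enzyme of acetaldehyde, rose from 34.2 ± 2.70 to 48.4 ± 1.60 CPM (0.50, adjusted p = 1.09e-05), and in TFAP2C KD 0 of 15 were called.

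Of 22 tested genes of Polycomb repressive complex 1 and its partners, 2 rose in labelled UBA2 KD, among them PHC2 by 0.26 (adjusted p = 0.000650). CBX8 fell there by 0.32 on the log2 scale (adjusted p = 0.0316). In TFAP2C KD 0 of 22 were called, but a call in 1 experiment only is no test of a difference. PHC2 stood at 0.29 in TFAP2C KD (adjusted p = 0.105) and CBX8 at 0.09 (0.689). Neither passed the direct test of the difference between the experiments (adjusted p = 0.966 and 0.126), which 2 of the 22 genes did. In the colon differentiation list KLF4, a transcription factor of differentiated epithelium, rose from 46.1 ± 0.65 to 74.3 ± 2.32 CPM (log2 fold change 0.69, adjusted p = 1.46e-09), 1 of 4 tested genes. Epithelial markers moved in the same libraries: CLDN7 and KRT18 rose (0.29 and 0.25, adjusted p = 0.000156 and 7.79e-05), as did EPCAM and KRT8, and ELF3 fell (-0.54, adjusted p = 2.49e-07). The 7 epithelial markers summed to 2339 and 2359 CPM without Dox and to 2698 and 2605 CPM in labelled UBA2 KD, and to 3009 and 3146 CPM with control siRNA and 3629 and 3362 CPM in TFAP2C KD. In TFAP2C KD 0 of the 7 were called, and of the markers of other cell types 0 of 4 and 0 of 2 tested genes were called in the respective experiments. Their part in the changes of the stem cell markers was not tested. In labelled UBA2 KD the DESeq2 Wald test called 13 list genes and a fit of all 8 libraries 10, where the main test called 21.

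**Figure D4:**
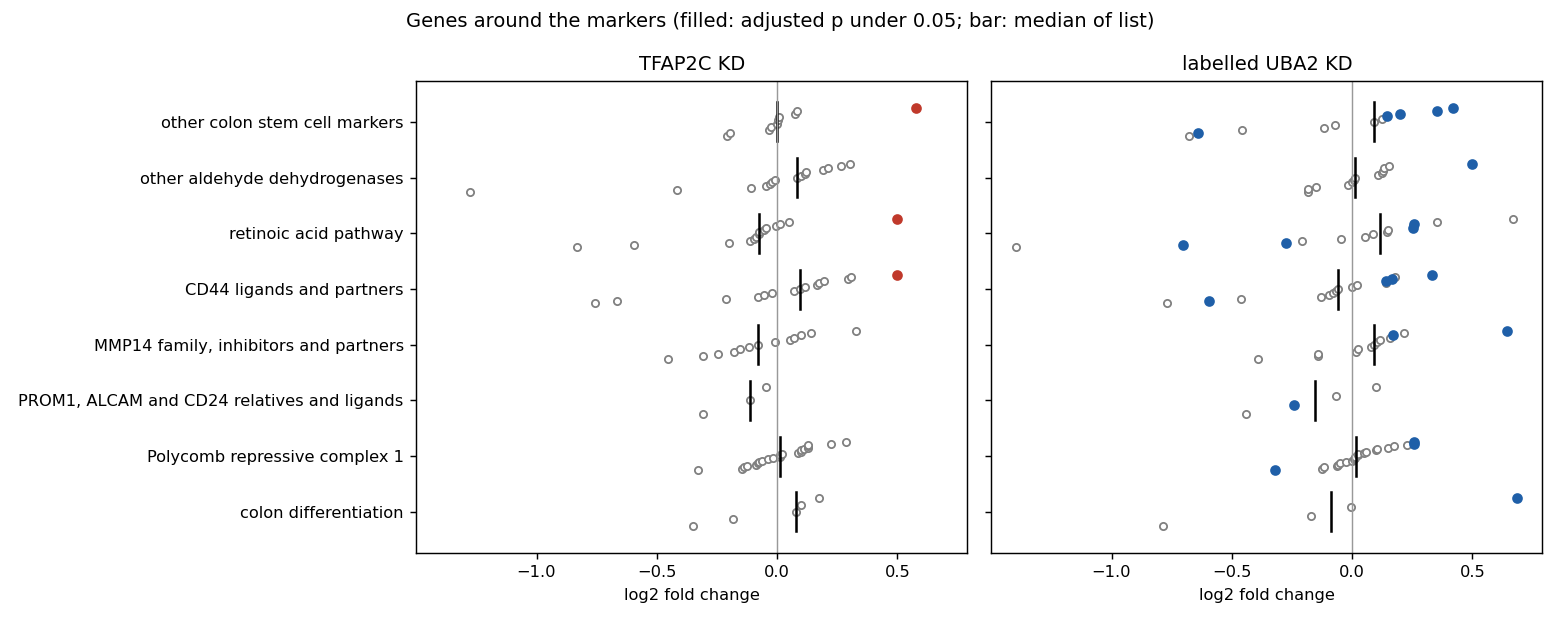
Log2 fold change (x axis) of the tested genes of 8 lists around the markers in TFAP2C KD on the left and labelled UBA2 KD on the right. Points are genes, filled where the adjusted p is under 0.05, and bars are medians of a list. There are 3 filled points on the left and 21 on the right.

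The patterns of the 3 called markers over the 8 libraries were set beside those of the other genes with enough counts, as log2 CPM with each experiment's mean removed. With the marker itself, these were 11002 genes. The genes most like CD44 were NT5C2 (Pearson's r = 0.994) and TMEM209 (0.985), and the most opposite were SLC25A4 (-0.984) and CCND3 (-0.981). UBE2L6 (0.989) and SLC4A8 (0.986) were most like CD24, and TBC1D20 (-0.988) and ABHD14B (-0.979) most opposite. For ALDH1A3 they were CCDC78 and CRTC3 (0.966 each) on one side and TP53INP1 (-0.974) and RBX1 (-0.962) on the other. Among the 7 tested markers themselves the pairs went from -0.69 for ALDH1A3 with BMI1 to 0.78 for CD24 with BMI1, where BMI1 rests on few counts in the UBA2 experiment, and without BMI1 from -0.62 for CD24 with ALCAM to 0.62 for CD44 with ALDH1A3. These are descriptions over 8 points that share libraries and depth, and the extremes among so many genes are high by selection.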

How the data were processed

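Single-end reads were mapped by the authors to hg19 (TopHat2) and counted with HTSeq 0.9.1 per the labels and methods. The authors deposited raw read counts per gene, with no normalization, in 1 table per experiment. The strand setting is not given in the sources used here, so reads of genes that overlap on opposite strands, such as CD44 and ALDH1A3 with antisense genes of at most 54 counts, cannot be told apart. The table of TFAP2C KD carries GRCh38 positions and Ensembl gene types, unlike the methods, and the other hg19. Columns were matched to samples by their labels, and 0 columns were left over.

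In R 4.3.3, genes passing filterByExpr of edgeR 4.0.16 were scaled by TMM and tested within each table by the quasi-likelihood test, two-sided, without a replicate term, at a Benjamini-Hochberg adjusted p under 0.05 over all genes. The difference between experiments was an interaction term over the 21257 shared symbols. With 2 libraries a group, rank or permutation tests on single genes cannot reach 0.05. CPM and RPKM were computed from the counts and the totals scaled by TMM. Errors of fold changes are standard errors. The code was tested on simulated data. Alternatives were other scalings, DESeq2 1.42.0, other filters, replicate blocks, all 8 libraries in 1 fit, and leaving out each library. Named besides the markers are TFAP2C, UBA2, the 2 genes of each list called in each direction with the largest change (mean log2 CPM at least 1, both knockdown libraries beyond both controls), and the 2 genes most like and most opposite to each called marker. EPCAM, SOX9, MSN, KRT8, DCN, COL1A1, CD68 and COMMD3-BMI1 were named outside this rule after their values were seen. Some genes that the rule names are not reported here, though counts of lists include them. Markers and lists were chosen with earlier results of these data known. Promoter sequences are those of RefSeq on GRCh38.p14.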

Additional observations from a re-analysis of the deposited data

Results flagged for a closer look

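Among the markers, TFAP2C, UBA2 and the list genes reported with values, 8 genes passed a direct test of the difference between the experiments, each given as the log2 fold change in TFAP2C KD minus that in labelled UBA2 KD, from edgeR's fit of all 8 libraries. TFAP2C, the target of the siRNA, differed by -2.07 (adjusted p = 5.08e-05). The stem cell markers that did so were CD44 at -0.34 ± 0.068 (standard error, adjusted p = 0.0129) and ALDH1A3 at -0.55 ± 0.13 (adjusted p = 0.0319). ITGA6 differed by -0.46 (adjusted p = 0.00723) and ITGB1 by -0.39 (adjusted p = 0.0400). CRABP2, the carrier of retinoic acid, differed by 0.62 (adjusted p = 0.00213). The values were -0.53 for KLF4 (adjusted p = 0.0249) and 0.42 for ELF3 (adjusted p = 0.0322). Under 14 alternatives for each gene, among them leaving out each of the 8 libraries, the 8 kept their signs, but only TFAP2C and CRABP2 passed the test in all 14. The test was missed in 8 of the 14 by ITGB1 (adjusted p up to 0.238), in 7 by CD44 (up to 0.113), in 6 by ELF3 (up to 0.190), in 5 by KLF4 (up to 0.202), in 5 by ALDH1A3 (up to 0.219) and in 3 by ITGA6 (up to 0.0735). In TFAP2C KD itself TFAP2C passed the test and the other 7 did not.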

How the results depend on the processing

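Most single values kept their direction and their side of the threshold: of 648 values of markers, TFAP2C, UBA2 and named list genes under the alternatives, 545 did, 71 lost the call at the same direction, 13 gained it and 19 changed sign. The 545 include values that had no call in the main test and gained none. The 3 markers called in labelled UBA2 KD lost the call in 10 values, at 12 alternatives each. The 2 markers called for the difference lost it in 12 values, at 14 alternatives each. In TFAP2C KD, 0 markers were called by the main test, 1 without a filter on low counts (CD24) and 1 in a fit of all 8 libraries (CD44), and 0 to 3 with a library left out. All genes called went from 111 to 398 without a filter and 271 in the fit of all 8 libraries, and from 49 to 2825 with a library left out. The list genes called went from 3 to 1 with library size only, 6 by the DESeq2 Wald test, 11 without a filter, 9 in the fit of all 8 libraries, and 1 to 23 with a library left out. In labelled UBA2 KD, 3 markers became 0 by the Wald test and 5 without a filter, and 1 to 3 with a library left out, the 1 without no Dox replicate 2. The 1336 genes became 673 by the Wald test, 696 in the fit of all 8 libraries, and 833 to 1271 with a library left out. The list genes went from 21 to 13 by the Wald test, 10 in the fit of all 8 libraries, and 14 to 23 with a library left out. With library size only, 588 genes were higher and 805 lower in labelled UBA2 KD, against 738 and 598 with TMM. Of the difference between experiments, 2 markers became 1 by the Wald test (CD44) and 0 to 2 with a library left out, and 313 genes became 607 without a filter and 113 to 1554 with a library left out. The causes were not tested. By CPM in place of RPKM, 4 of 8 markers kept their rank with control siRNA.

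The replicate numbers were not shown to pair the samples, since the deviations of same-numbered libraries correlated at -0.28 in the TFAP2C experiment and -0.05 in the UBA2 experiment. With the number as a block, 172 genes and 5 list genes were called in TFAP2C KD, 4 markers in labelled UBA2 KD (BMI1 added, adjusted p = 0.0300), and 1 marker (ALDH1A3) and 173 genes for the difference. Crossing the numbers in the TFAP2C experiment, chosen after seeing the data, gave a block with 467 genes and 1 marker called.

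Values that changed sign lay between -0.061 and 0.12 in the main test, but some moved well away from 0 with a library left out. With a library left out, ALCAM in TFAP2C KD went from -0.056 to 0.27, MMP14 in labelled UBA2 KD from -0.042 to 0.18 and PROM1 there from -0.073 to 0.014 and 0.049. The difference between experiments for MMP14 was 0.0028 with DESeq2 size factors, 0.0078 with library size only, 0.0019 by the Wald test, 0.0065 without a filter and 0.0037 with at least 10 counts in every library, and -0.12 to 0.018, 0.025, 0.031 and 0.11 with a library left out. For ALCAM it went from -0.23 to 0.00080, 0.0041 and 0.13, and for CD24 from -0.018 to 0.17. UBA2 went from -0.11 to 0.038 in labelled UBA2 KD and from -0.13 to 0.0095 for the difference. BMI1 in labelled UBA2 KD has no adjusted p from DESeq2. The 81 to 151 counts of CD24 and 12 to 36 of BMI1 in the UBA2 experiment limit the precision of their changes, and ALDH1A1 could not be tested.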
